A study of Homo sapiens with 12 samples.

Results

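Semaphorins are guidance ligands and neuropilins are receptors that several of them share with VEGF. The ligands covered here are SEMA3A, SEMA3C, SEMA3F, SEMA4B, SEMA6A, SEMA6B and SEMA7A, together with the receptors NRP1 and NRP2, and they differ in class and in receptor. These 9 genes were taken by symbol from the 60663 genes of the count table, and all 9 passed the filter on low counts that left 20714 genes for testing. They were chosen by symbol from the pathway with earlier log2 fold changes and levels from the same libraries in view, so their own values are given as a description with standard errors and 95% intervals and no p-value.

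RNA came from RCC4, a human clear cell renal cell carcinoma line, in 4 groups of 3 libraries each. VHL-negative cells, which have lost the tumour suppressor VHL, received 5 µM JQ1 or its solvent DMSO, and cells of the same line with VHL reintroduced, called VHL-positive here, received 5 µM JQ1 or DMSO. JQ1 blocks the BET bromodomain proteins that read acetylated chromatin, and the labels describe it as a MYC inhibitor. All groups shared the line and a high-glucose medium with serum and geneticin. The labels leave out the VHL construct, how long the cells were treated and whether each replicate had its own culture, so standard errors and p-values may reflect technical spread only. RNA was depleted of ribosomal RNA and sequenced in bulk, so a change in RNA per cell and a change in the make-up of the culture cannot be told apart. VHL status goes together with the cells compared, so VHL itself and any other difference between the VHL-negative and VHL-positive cells cannot be told apart.

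Class 3 semaphorins are secreted and bind a neuropilin, which passes the signal on through a plexin and thereby loosens the actin cytoskeleton and cell adhesion. Classes 4 and 6 span the membrane and bind plexins directly, and SEMA7A is held in the membrane by a lipid anchor and binds integrins and PLXNC1. VHL marks hypoxia-inducible factors for degradation, and its loss in clear cell renal carcinoma raises VEGFA, the angiogenic ligand that competes with class 3 semaphorins for neuropilins.

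Total counts ran from 15452949 to 32502310 per library. VHL itself measured 35.2, 32.4 and 30.5 CPM (counts scaled to a common library size, with TMM factors) in VHL-negative JQ1 libraries and 24.9, 28.2 and 26.2 in VHL-negative DMSO libraries. It measured 220, 196 and 221 CPM in VHL-positive JQ1 libraries and 67.3, 64.6 and 78.9 in VHL-positive DMSO libraries, above every VHL-negative library. Within VHL-positive cells VHL was thus higher under JQ1, so comparisons of the lines under JQ1 and under DMSO rest on unlike VHL levels. The part of this in the results was not tested. CA9, a marker of hypoxia-inducible factor activity, averaged 28.1 and 83.5 CPM in VHL-negative cells under JQ1 and DMSO, against 0.531 and 0.126 CPM in VHL-positive cells under JQ1 and DMSO. HEXIM1, which BET inhibitors raise, averaged 182 CPM under JQ1 against 67.7 under DMSO in VHL-negative cells, and 218 against 91.1 in VHL-positive cells. All 9 renal and carcinoma markers passed the filter. Of 8 endothelial markers 2 passed, and the 8 summed to 6.80 to 12.6 CPM in VHL-negative JQ1 libraries against 5.40 to 6.33 CPM in VHL-negative DMSO libraries, and to 4.90 to 5.17 CPM in VHL-positive JQ1 libraries against 3.31 to 4.46 CPM in VHL-positive DMSO libraries. ESAM, at 2.23 to 9.89 CPM, carried most of this, and among the defining endothelial genes KDR was at 0 in 10 of 12 libraries, TEK in 7, CDH5 in 5 and PECAM1 and VWF in 3 each. Of 4 fibroblast markers PDGFRB alone passed, and the 4 summed to 0.894 to 1.79 CPM in VHL-negative JQ1 libraries against 6.57 to 8.13 CPM in VHL-negative DMSO libraries, and to 0.162 to 0.517 CPM in VHL-positive JQ1 libraries against 0.197 to 2.05 CPM in VHL-positive DMSO libraries, with LUM at 0 in 10 libraries and DCN in 9. The 5 leukocyte markers, 2 of which passed, summed to 0.957 to 1.59 CPM and 3.37 to 4.51 CPM in VHL-negative JQ1 and DMSO libraries. In VHL-positive JQ1 and DMSO libraries they summed to 0.861 to 1.296 CPM and 2.08 to 3.90 CPM. CSF1R had the highest mean of the 5 in each group, at 0.402 to 4.36 CPM over all libraries. ITGAM averaged 1.20 CPM in VHL-positive DMSO libraries, and CD3E was at 0 in 11 libraries. The part of these markers in the results was not tested. Replicate 2 of the VHL-positive DMSO group stood apart for several of the genes below, and the main values that rest on it are also given without it. Replicate 1 of the VHL-negative DMSO group was also high for SEMA4B, SEMA6A, NRP1 and NRP2. Values without it are given for SEMA4B, SEMA6A and NRP1.

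**Figure D1:**
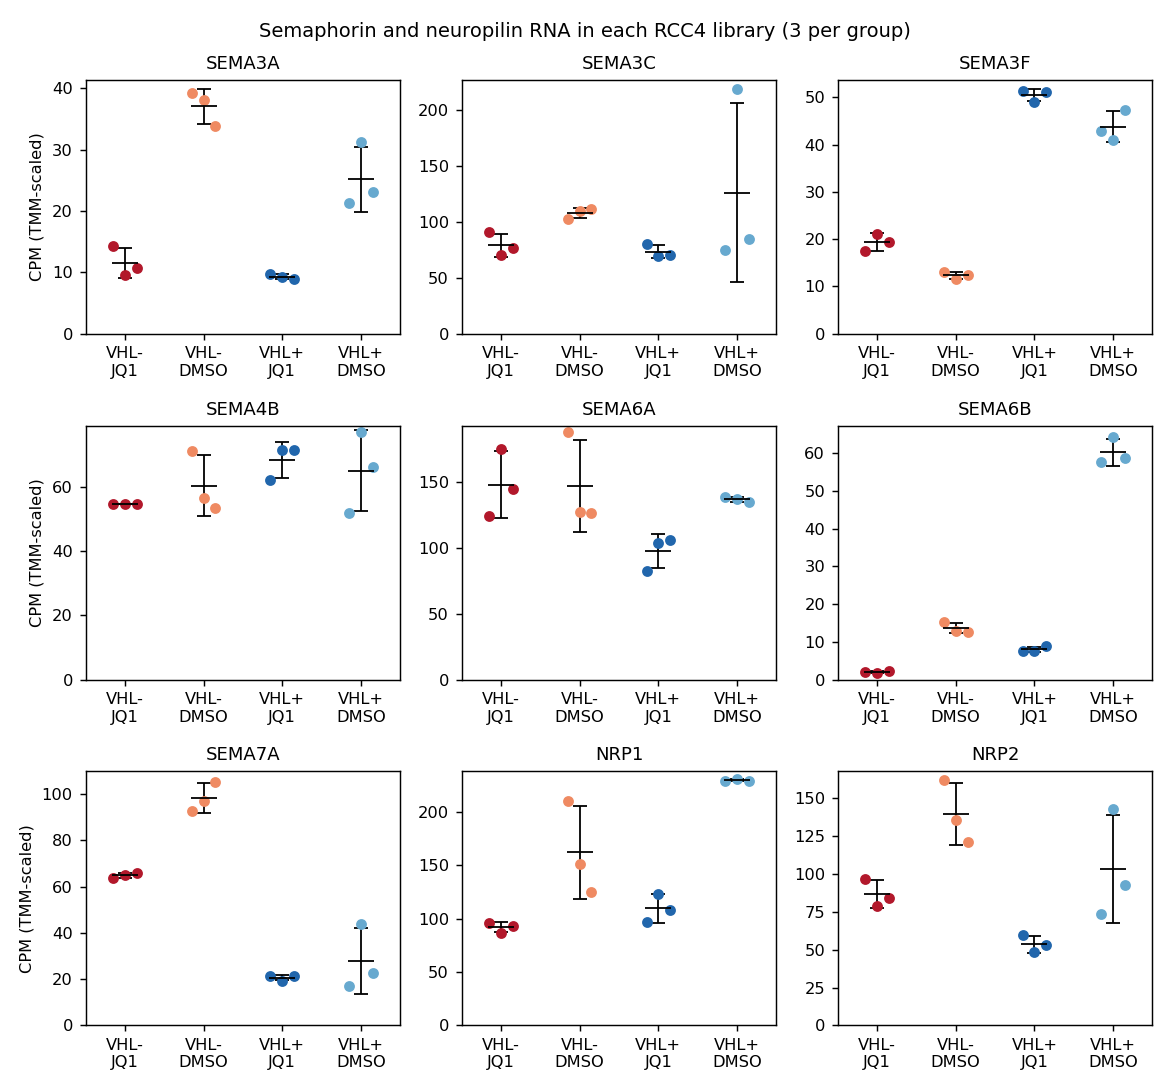
TMM-scaled CPM of each gene in the 12 libraries, with VHL- and VHL+ for VHL-negative and VHL-positive cells; points are replicates 1 to 3 and black bars the mean and SD. SEMA6B reached 57.8 to 64.2 CPM in VHL-positive DMSO libraries against 1.73 to 2.33 CPM in VHL-negative JQ1 libraries, and 1 VHL-positive DMSO library stood high for SEMA3C, SEMA7A and NRP2.

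Among the secreted ligands, SEMA3A, the collapsin that repels axons and endothelial cells through NRP1, was lower with JQ1 in both lines. The gene (ENSG00000075213) spans GRCh38 chromosome 7, 83955777 to 84492724. In VHL-negative cells SEMA3A had 14.4, 9.65 and 10.7 CPM under JQ1, against 39.2, 38.1 and 33.9 CPM under DMSO. VHL-positive cells had 9.75, 9.23 and 9.01 CPM under JQ1, against 21.3, 31.2 and 23.2 CPM under DMSO. JQ1 and DMSO libraries did not overlap in either line. The fitted log2 fold change was -1.67 (SE 0.17, 95% interval -2.03 to -1.31) in VHL-negative cells and -1.43 (SE 0.17, interval -1.80 to -1.07) in VHL-positive cells. Between the lines, SEMA3A was 1.47-fold higher in VHL-negative than in VHL-positive cells under DMSO (log2 0.56, SE 0.16), again without overlap. Under JQ1 the lines overlapped (log2 0.32, SE 0.17). Without replicate 2 of the VHL-positive DMSO group, the JQ1 value in VHL-positive cells was -1.23. Over all libraries left out in turn the value between the lines under DMSO ran from 0.45 to 0.75, the highest without that replicate 2.

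SEMA3F, which signals through NRP2 and is known as an inhibitor of tumour angiogenesis, took the opposite course, most clearly in VHL-negative cells. It lies on the short arm of chromosome 3 (ENSG00000001617, 50155045 to 50189075), the arm that also carries VHL. VHL-negative cells held 17.4, 21.2 and 19.5 CPM of SEMA3F under JQ1, against 13.0, 11.6 and 12.4 CPM under DMSO. VHL-positive cells held 51.2, 49.0 and 51.1 CPM under JQ1, against 42.8, 41.0 and 47.3 CPM under DMSO. Every VHL-negative library was thus below every VHL-positive library, whichever the treatment. The line difference was 3.54-fold under DMSO (log2 -1.82, SE 0.12) and 2.61-fold under JQ1 (log2 -1.38, SE 0.12), with VHL-negative cells lower in both. By TMM-scaled CPM, JQ1 libraries were higher than DMSO libraries without overlap in both lines. The JQ1 value was log2 0.65 (SE 0.12, interval 0.39 to 0.90) in VHL-negative cells. In VHL-positive cells it was log2 0.21 (SE 0.12), with an interval of -0.042 to 0.45 that included 0. With total counts alone in place of TMM that VHL-positive value was 0.091. About 2.28% of the exon bases of SEMA3F overlap its antisense gene SEMA3F-AS1, and the sources used here do not say whether strand was counted, so the reads of both cannot be told apart there.

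The ratio of both ligands was lower with JQ1 in each line, without overlap. SEMA3A over SEMA3F, each taken as CPM per kilobase of exon, was 0.425, 0.235 and 0.283 in VHL-negative JQ1 libraries and 1.55, 1.69 and 1.41 in VHL-negative DMSO libraries. In VHL-positive cells the ratio was 0.0980, 0.0971 and 0.0908 under JQ1, against 0.256, 0.393 and 0.252 under DMSO. SEMA3A exceeded SEMA3F per exon length in the 3 VHL-negative DMSO libraries only.

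SEMA3C, a secreted ligand of both neuropilins with reported tumour-promoting roles, was the most abundant class 3 member in all 4 groups by mean level per exon length. The gene (ENSG00000075223) spans chromosome 7, 80742538 to 80922359. It measured 90.8, 70.5 and 76.3 CPM in VHL-negative JQ1 libraries, against 103, 109 and 112 CPM in VHL-negative DMSO libraries. VHL-positive cells held 80.6, 69.5 and 70.4 CPM under JQ1, against 75.2, 218 and 85.0 CPM under DMSO. The groups did not overlap in VHL-negative cells (log2 -0.45, SE 0.28) but did in VHL-positive cells, where 1 DMSO library held the highest value of all 12. With all libraries the JQ1 value in VHL-positive cells was -0.78 (SE 0.28), and without replicate 2 of the VHL-positive DMSO group it was -0.11. The comparison of lines under DMSO, VHL-negative over VHL-positive, turned likewise with that library, being -0.23 with it and 0.44 without it. Under JQ1 the lines overlapped (log2 0.11, SE 0.28).

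Of the membrane-spanning ligands, SEMA6B varied most of all 9 genes, and its highest and lowest group means were 30.3-fold apart. SEMA6B (ENSG00000167680, chromosome 19, 4542593 to 4559808) is a ligand of A-type plexins. In VHL-negative cells it had 1.91, 1.73 and 2.33 CPM under JQ1, against 15.2, 13.0 and 12.6 CPM under DMSO. In VHL-positive cells it had 7.46, 7.66 and 8.84 CPM under JQ1, against 57.8, 64.2 and 58.7 CPM under DMSO. No library of 1 group overlapped with any library of another group. JQ1 libraries were 6.76-fold lower in VHL-negative cells (log2 -2.76, SE 0.16, interval -3.09 to -2.43) and 7.56-fold in VHL-positive cells (log2 -2.92, SE 0.14, interval -3.22 to -2.62). VHL-negative cells were 4.42-fold below VHL-positive cells under DMSO (log2 -2.15, SE 0.13) and 3.96-fold below under JQ1 (log2 -1.98, SE 0.16). The difference between the JQ1 effects of the lines, VHL-negative minus VHL-positive, was 0.16 on the log2 scale with an interval of -0.28 to 0.60.

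SEMA6A, the other class 6 ligand and a partner of PLXNA2 and PLXNA4, was the most abundant of the membrane-spanning members by CPM per kilobase in both VHL-negative groups and behaved differently from SEMA6B. The gene (ENSG00000092421) spans chromosome 5, 116443616 to 116574934, with 2.98% of its exon bases overlapping antisense genes. It measured 124, 175 and 145 CPM in VHL-negative JQ1 libraries, against 188, 127 and 126 CPM in VHL-negative DMSO libraries, and these overlapped (log2 0.0089, SE 0.17). VHL-positive cells held 82.4, 104 and 106 CPM under JQ1, against 139, 137 and 135 CPM under DMSO, and these did not overlap (log2 -0.49, SE 0.17). The lines overlapped under DMSO (log2 0.10, SE 0.17), and VHL-negative cells were higher without overlap under JQ1 (log2 0.60, SE 0.17). The high VHL-negative DMSO value belongs to replicate 1, whose share of mitochondrial counts was the highest of all libraries at 25.3% (lowest 9.90%), and its part in the value was not tested. Without that library the JQ1 value in VHL-negative cells was 0.22, and the value between the lines under DMSO was -0.11. Per exon length, SEMA6A over SEMA6B was 26.2, 40.8 and 25.0 in VHL-negative JQ1 libraries and 4.97, 3.94 and 4.03 in VHL-negative DMSO libraries. It was 4.45, 5.46 and 4.82 in VHL-positive JQ1 libraries and 0.968, 0.859 and 0.925 in VHL-positive DMSO libraries, the one group in which SEMA6B had the higher level per exon length.

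SEMA4B, a class 4 ligand, varied least, with group means within 1.25-fold of each other. The gene (ENSG00000185033) spans chromosome 15, 90160604 to 90229679. Its levels were 54.8, 54.9 and 54.9 CPM in VHL-negative JQ1 libraries, against 71.3, 56.6 and 53.4 CPM in VHL-negative DMSO libraries. They were 62.1, 71.7 and 71.7 CPM in VHL-positive JQ1 libraries, against 51.9, 77.2 and 66.4 CPM in VHL-positive DMSO libraries. JQ1 and DMSO libraries overlapped in both lines, with intervals of -0.46 to 0.18 in VHL-negative and -0.25 to 0.39 in VHL-positive cells on the log2 scale. Without replicate 1 of the VHL-negative DMSO group, the JQ1 value in VHL-negative cells was -0.0060 in place of -0.14. By TMM-scaled CPM, VHL-negative cells were below VHL-positive cells without overlap under JQ1 (log2 -0.32, SE 0.15). With total counts alone in place of TMM that value was -0.16. The lines overlapped under DMSO (log2 -0.11, SE 0.15, and 0.040 without replicate 2 of the VHL-positive DMSO group).

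SEMA7A, the anchored ligand that also binds the integrin of ITGA1 and ITGB1, was the most abundant of the 9 genes per exon length in VHL-negative cells and ranked only 6 and 8 of 9 in VHL-positive cells under JQ1 and DMSO. The gene (ENSG00000138623) spans chromosome 15, 74409289 to 74433958. It measured 63.7, 65.2 and 65.8 CPM in VHL-negative JQ1 libraries, against 92.9, 97.0 and 105 CPM in VHL-negative DMSO libraries. VHL-positive cells held 21.5, 19.3 and 21.2 CPM under JQ1, against 17.1, 44.1 and 22.6 CPM under DMSO. Every VHL-negative library exceeded every VHL-positive library. VHL-negative over VHL-positive cells gave 3.53-fold under DMSO (log2 1.82, SE 0.24) and 3.14-fold under JQ1 (log2 1.65, SE 0.24), and without replicate 2 of the VHL-positive DMSO group the value under DMSO was log2 2.32. JQ1 libraries were lower without overlap in VHL-negative cells (log2 -0.60, SE 0.23). In VHL-positive cells they overlapped with DMSO libraries (log2 -0.43, SE 0.24), and without that replicate 2 the value was 0.078. Per exon length SEMA7A over SEMA3F was 3.92 to 4.64 in VHL-negative JQ1 and 9.08 to 10.8 in VHL-negative DMSO libraries, against 0.500 to 0.532 in VHL-positive JQ1 and 0.506 to 1.37 in VHL-positive DMSO libraries, the highest of which, again replicate 2, stood apart from 0.506 and 0.605 in the other two.

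The promoters of SEMA7A and SEMA3F are shown because these genes separated VHL-negative from VHL-positive libraries in opposite directions, and hypoxia-inducible factors bind the core letters ACGTG or GCGTG. RefSeq promoter entries (GRCh38.p14) matched 5 of the 9 genes, SEMA3C, SEMA3F, SEMA4B, SEMA7A and NRP2, with 11 windows between them, and the 250 bases before each start were searched on both strands. The E-box CACGTG, which MYC can bind, was searched too, and it contains ACGTG on both strands. One window of 11 held ACGTG or GCGTG and none held CACGTG, while of all 35114 promoters searched alike 18.5% held ACGTG, 32.2% GCGTG, 43.2% either and 6.35% CACGTG. The first line is the window before the outer SEMA7A start (chr15:74433959-74434208, minus strand), the second a stretch of 30 bases around the single match with the match in capitals (chr15:74433881-74433910, minus strand), and the third the window before the outer SEMA3F start (chr3:50154808-50155057, plus strand), each 5′ to 3′ along the gene.
SEMA7A outer start: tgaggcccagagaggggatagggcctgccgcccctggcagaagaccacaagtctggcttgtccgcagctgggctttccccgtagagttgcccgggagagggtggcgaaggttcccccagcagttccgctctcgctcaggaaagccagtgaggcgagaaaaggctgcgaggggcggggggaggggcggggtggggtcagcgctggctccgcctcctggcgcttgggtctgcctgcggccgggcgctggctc
SEMA7A match: tcctccgcccggACGTGccgcccccagcgc
SEMA3F outer start: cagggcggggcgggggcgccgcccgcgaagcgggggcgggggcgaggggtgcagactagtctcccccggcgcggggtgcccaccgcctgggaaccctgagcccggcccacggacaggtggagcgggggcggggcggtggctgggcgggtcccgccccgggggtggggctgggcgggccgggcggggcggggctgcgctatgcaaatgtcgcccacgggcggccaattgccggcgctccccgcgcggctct
The single match lies 194 bases before the inner SEMA7A start, where GENCODE 29 annotates coding exon read from the outer start. The G and C content was 70.0% in the outer SEMA7A window and 82.0% in that of SEMA3F, against a median of 58.0% over all promoters. These are matches of letters within short windows and say nothing of binding in RCC4 cells.

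NRP1, the receptor through which SEMA3A and VEGFA act, was lower with JQ1 in both lines. The gene (ENSG00000099250) spans chromosome 10, 33177492 to 33336262, and 4.87% of its exon bases overlap an antisense gene. In VHL-negative cells NRP1 had 95.8, 86.8 and 93.0 CPM under JQ1, against 210, 151 and 125 CPM under DMSO. In VHL-positive cells it had 96.8, 124 and 108 CPM under JQ1, against 229, 231 and 229 CPM under DMSO. Neither pair of groups overlapped, and the DMSO replicates were far closer to each other in VHL-positive than in VHL-negative cells. The JQ1 value was log2 -0.82 (SE 0.16, interval -1.16 to -0.48) in VHL-negative cells and -1.07 (SE 0.16, interval -1.41 to -0.73) in VHL-positive cells. Without replicate 1 of the VHL-negative DMSO group, the value in VHL-negative cells was -0.59. VHL-negative cells were below VHL-positive cells under DMSO by 1.42-fold (log2 -0.50, SE 0.16) and lay just below them under JQ1 (log2 -0.25, SE 0.16), without overlap in both. Without that DMSO replicate the value under DMSO was -0.73. Over all libraries left out in turn it ran from -0.73 to -0.35. With total counts alone in place of TMM the value under JQ1 was -0.095.

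NRP2, which binds SEMA3F, SEMA3C and VEGFC, was also lower with JQ1 in both lines but differed between lines in the other direction. The gene (ENSG00000118257) spans chromosome 2, 205681990 to 205798133, with 1.06% of its exon bases overlapping an antisense gene. In VHL-negative cells NRP2 had 96.6, 78.8 and 84.2 CPM under JQ1, against 162, 135 and 121 CPM under DMSO. In VHL-positive cells it had 59.4, 48.4 and 53.0 CPM under JQ1, against 73.7, 143 and 92.4 CPM under DMSO. JQ1 libraries lay below DMSO libraries without overlap in both lines, by log2 -0.69 (SE 0.20, interval -1.10 to -0.27) in VHL-negative cells and -0.94 (SE 0.20, interval -1.36 to -0.52) in VHL-positive cells. Without replicate 2 of the VHL-positive DMSO group, the value in VHL-positive cells was -0.61. VHL-negative cells were higher without overlap under JQ1 (log2 0.69, SE 0.20), and the lines overlapped under DMSO (log2 0.44, SE 0.19, and 0.76 without that replicate). NRP2 over NRP1 per exon length was 0.751 to 0.837 in VHL-negative JQ1 and 0.639 to 0.801 in VHL-negative DMSO libraries, against 0.325 to 0.509 in VHL-positive JQ1 and 0.267 to 0.513 in VHL-positive DMSO libraries. NRP1 therefore had the higher level per exon length in all 12 libraries. Both neuropilins added together gave 13.2 to 15.3 CPM per kilobase in VHL-negative JQ1 libraries against 19.6 to 29.9 in VHL-negative DMSO libraries, and 12.7 to 14.2 in VHL-positive JQ1 libraries against 25.2 to 30.3 in VHL-positive DMSO libraries.

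**Figure D2:**
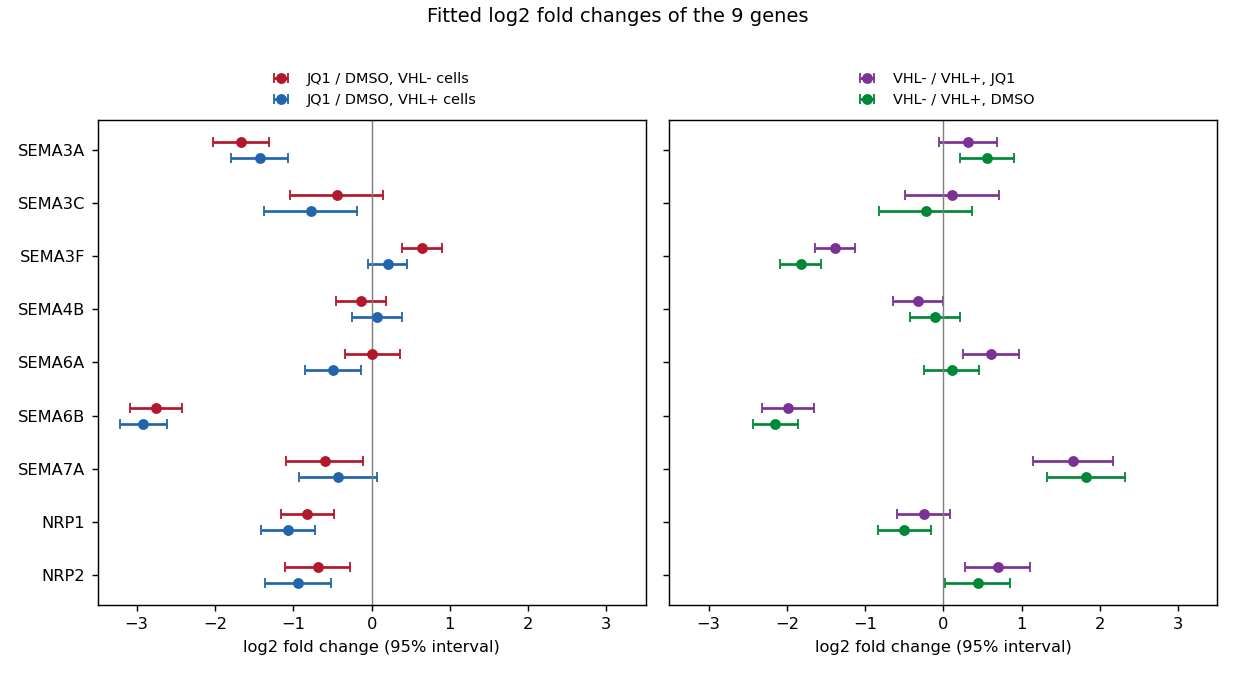
Fitted log2 fold changes of the 9 genes with 95% intervals; left, JQ1 over DMSO in VHL-negative (red) and VHL-positive (blue) cells; right, VHL-negative over VHL-positive cells under JQ1 (purple) and DMSO (green). SEMA6B lies at -2.76 and -2.92 on the left, and SEMA3F and SEMA7A stand on opposite sides of 0 on the right.

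Counted together, 5 of the 9 genes passed an adjusted p under 0.05 for JQ1 in VHL-negative cells, 1 higher and 4 lower, where 32.1% of all tested genes passed (14.6% higher, 17.5% lower). Leaving out 1 library gave 4 to 7 of the 9, beside 4672 to 8106 of all genes. The count was 4, without NRP2, when replicate 2 or 3 of the VHL-negative JQ1 group or replicate 1 of its DMSO group was left out. In VHL-positive cells 6 passed, all lower, where 31.8% of all genes passed (15.3% higher, 16.5% lower). Leaving out 1 library gave 4 to 6, beside 4710 to 7355 of all genes. The count was 4 without any single VHL-positive JQ1 library, without replicate 2 of the VHL-positive DMSO group and without replicate 3 of the VHL-negative JQ1 group. The median log2 value of the 9 was -0.60 in VHL-negative and -0.78 in VHL-positive cells, beside 0.034 and -0.027 over all tested genes. Libraries did not overlap for 7 of 9 in VHL-negative cells (43.1% of all genes) and for 6 of 9 in VHL-positive cells (48.2% of all genes). Between the lines, VHL-negative against VHL-positive, 5 passed under DMSO, 2 higher and 3 lower, where 30.7% of all genes passed (14.8% higher, 15.9% lower). The count under DMSO was 3, 1 higher and 2 lower, without replicate 1 or without replicate 3 of the VHL-positive DMSO group. Without replicate 2 of that group it was 6, 4 higher and 2 lower. Over the libraries left out in turn, 5008 to 7124 of all genes passed. Under JQ1 5 passed, 3 higher and 2 lower, where 40.9% passed (19.7% higher, 21.2% lower). Libraries did not overlap for 5 of 9 under DMSO (42.7% of all genes) and for 7 of 9 under JQ1 (52.9% of all genes). Overlap was judged on TMM-scaled CPM throughout, and other scaling can change it. Since the genes were listed with these comparisons known, nothing is read from the counts. The comparisons of lines and of treatments share libraries and are not independent of each other.

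The JQ1 effects of both lines were set against each other directly. In edgeR's quasi-likelihood test 0 of the 9 genes passed for the difference, where 1.21% of all genes did. DESeq2 and limma-voom also passed 0. Over all genes DESeq2 called 464 higher and 724 lower, and limma-voom 73 higher and 125 lower. At an unadjusted p under 0.05 the count was 1 by edgeR, 1 by DESeq2 and 2 by limma-voom. The share of all genes at that threshold is not given here, so nothing is read from these counts. The differences, VHL-negative minus VHL-positive, ran from -0.24 for SEMA3A to 0.50 for SEMA6A on the log2 scale. The interval for SEMA6A ran from just below 0 to 1.004, that for SEMA3F, at 0.44, was 0.083 to 0.80 and lay above 0, and that for SEMA3C was -0.51 to 1.17. The SEMA3C difference was 0.33 with all libraries and -0.34 without replicate 2 of the VHL-positive DMSO group.

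Levels can be ordered between genes only per exon length. In VHL-negative JQ1 cells SEMA7A stood highest at 17.1 ± 0.295 CPM per kilobase (SD, n = 3), followed by SEMA6A at 13.5 and SEMA3C at 12.6, whose libraries overlapped, and SEMA6B was lowest at 0.451. VHL-negative DMSO cells had SEMA7A at 25.9 ± 1.67, then SEMA3C at 17.2, NRP1 at 14.1 and SEMA6A at 13.4, each overlapping with its neighbour, down to SEMA3F at 2.56. In VHL-positive JQ1 cells SEMA3C led at 11.7 ± 0.979, apart from SEMA3F at 10.4, after which SEMA4B, NRP1 and SEMA6A overlapped in turn, and SEMA3A was lowest at 0.996. VHL-positive DMSO cells had SEMA3C at 20.1 ± 12.8 and NRP1 at 19.9 ± 0.0765, which overlapped, then SEMA6B at 13.7 and SEMA6A at 12.5, with SEMA3A lowest at 2.69. The first place of SEMA3C there rests on replicate 2, without which its mean was 12.8, below NRP1 at 19.9 and SEMA6B at 13.2 and still above SEMA3F at 9.34.

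The semaphorins were also taken as shares of the summed per-length level of the 15 semaphorins that passed the filter. SEMA7A made up 22.9% ± 0.505 (SD, n = 3) in VHL-negative JQ1 and 28.1% ± 2.45 in VHL-negative DMSO cells, against 7.79% ± 0.504 in VHL-positive JQ1 and 7.63% ± 2.32 in VHL-positive DMSO cells. SEMA3F made up 5.37% ± 0.470 and 2.77% ± 0.0572 in VHL-negative cells under JQ1 and DMSO, against 14.97% ± 0.494 and 10.1% ± 2.25 in VHL-positive cells under JQ1 and DMSO. SEMA6B took 0.606% ± 0.101 of the total under JQ1 and 3.33% ± 0.229 under DMSO in VHL-negative cells, and 2.59% ± 0.209 under JQ1 and 15.04% ± 2.04 under DMSO in VHL-positive cells. The 8 other semaphorins together rested at 23.9% and 19.1% in VHL-negative cells under JQ1 and DMSO, and at 29.7% and 19.7% in VHL-positive cells under JQ1 and DMSO.

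**Figure D3:**
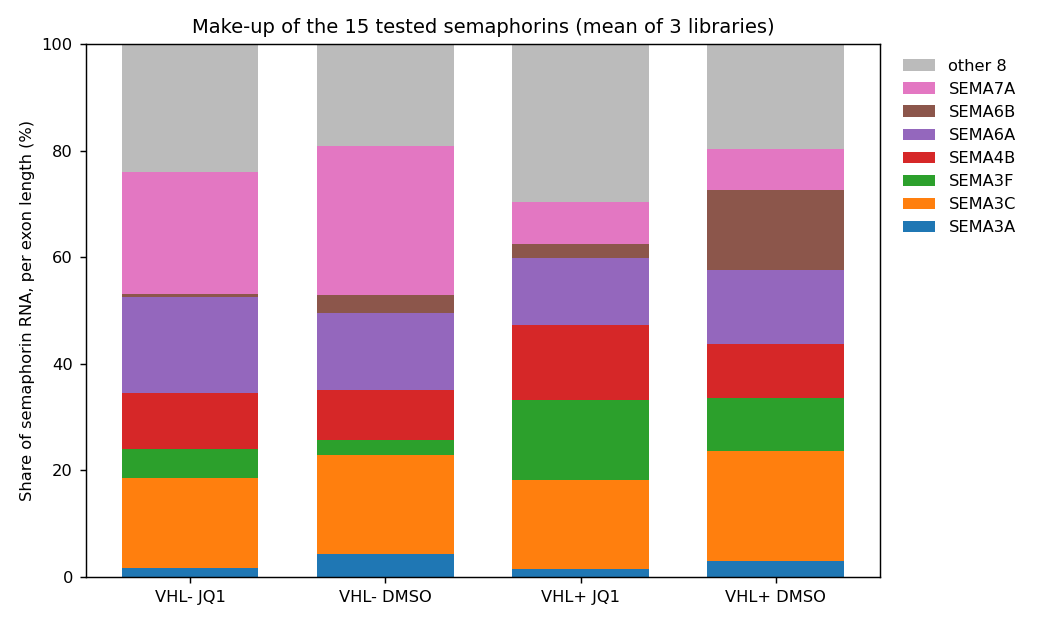
Share of each semaphorin in the summed level per exon length of the 15 tested semaphorins, in percent, as the mean of 3 libraries per group; the gray part holds the 8 semaphorins outside the 9 genes described. SEMA7A takes 22.9% and 28.1% in the VHL-negative groups (JQ1, DMSO) against 7.79% and 7.63% in the VHL-positive groups (JQ1, DMSO).

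Of the 13 semaphorins outside the list, 8 were tested, and SEMA3D, SEMA3E, SEMA3G, SEMA4A and SEMA6D were too low. With JQ1, 3 rose and 2 fell in VHL-negative cells (32.1% of all genes passed) and 3 rose and 3 fell in VHL-positive cells (31.8% of all genes), with medians of 0.20 and -0.23 on the log2 scale. SEMA5B, a guidance ligand of class 5, fell in both lines, by log2 -2.01 (SE 0.38, adjusted p = 0.00088 by edgeR) in VHL-negative and -2.06 (SE 0.44, adjusted p = 0.00231) in VHL-positive cells. SEMA6C, the remaining class 6 gene tested, rose in both lines, by log2 1.10 (SE 0.25, adjusted p = 0.00356) and 1.78 (SE 0.25, adjusted p = 7.31e-05) in VHL-negative and VHL-positive cells. The 3 tested class 6 genes thus did not share a direction under JQ1. Between the lines, 3 were higher and 2 lower in VHL-negative cells under DMSO (30.7% of all genes passed), and 3 higher and 4 lower under JQ1 (40.9% of all genes). The largest were lower in VHL-negative than in VHL-positive cells, SEMA4G by log2 -2.51 under DMSO (SE 0.22, adjusted p = 2.3e-07) and -2.18 under JQ1 (SE 0.22, adjusted p = 1.31e-06), and SEMA5A by log2 -2.38 under DMSO (SE 0.15, adjusted p = 4.14e-09) and -2.16 under JQ1 (SE 0.15, adjusted p = 1.27e-08). SEMA3B, the neighbour of SEMA3F on chromosome 3 at 50267558 to 50277546, was higher in VHL-negative cells, by log2 1.55 under DMSO (SE 0.29, adjusted p = 0.000675), opposite to SEMA3F.

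All 9 plexins, the signalling receptors of semaphorins, were tested. With JQ1, 1 rose and 4 fell in VHL-negative cells, beside 32.1% of all genes passing, and 2 rose and 2 fell in VHL-positive cells, beside 31.8%. The count of 4 in VHL-positive cells was 2 without replicate 3 of the JQ1 group, without replicate 1 of the DMSO group, and with total counts alone in place of TMM. PLXNB3 fell in both lines, by log2 -0.81 (SE 0.19, adjusted p = 0.00404) in VHL-negative and -1.21 (SE 0.22, adjusted p = 0.000509) in VHL-positive cells. PLXNB1, the receptor of SEMA4D, fell by log2 -0.74 (SE 0.14, adjusted p = 0.000683) in VHL-negative and by -0.46 (SE 0.14, adjusted p = 0.016) in VHL-positive cells, the second losing its call without replicate 1 or 3 of the VHL-positive JQ1 group or replicate 3 of the DMSO group (adjusted p 0.0661 to 0.12). PLXNA3 rose by log2 0.53 (adjusted p = 0.0309) in VHL-negative and 0.57 (adjusted p = 0.0235) in VHL-positive cells, calls that were lost without several single libraries (adjusted p up to 0.147 and 0.0711). PLXNA4 fell by log2 -1.59 (SE 0.37, adjusted p = 0.00408) and PLXND1 by -0.69 (SE 0.19, adjusted p = 0.00989) in VHL-negative cells, the second missing 0.05 without replicate 1 of the VHL-negative DMSO group (adjusted p = 0.0613). PLXNB2, by far the most abundant plexin by CPM, averaged 591 CPM under JQ1 and 460 under DMSO in VHL-negative cells (log2 0.36, adjusted p = 0.0572), and 568 under JQ1 and 404 under DMSO in VHL-positive cells (log2 0.49, adjusted p = 0.0129). That call was lost without DMSO replicate 1 (adjusted p = 0.0522) and with total counts alone (log2 0.38, adjusted p = 0.0786).

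Between the lines, 4 plexins were higher and 1 lower in VHL-negative cells under DMSO, where 30.7% of all genes passed, and 4 were higher and 2 lower under JQ1, where 40.9% passed. Without replicate 3 of the VHL-positive DMSO group the count under DMSO was 3, and without most other single libraries it was 4. PLXNA1 was among the plexins called higher there. By edgeR its call was lost without most single libraries (adjusted p 0.0594 to 0.195). It was also lost with no filter on low counts and with only the compared groups. PLXND1, the receptor of SEMA3E in mouse vessels, was lower in VHL-negative than in VHL-positive cells, by log2 -1.61 (SE 0.19, adjusted p = 5.51e-06) under DMSO and -2.05 (SE 0.19, adjusted p = 4.87e-07) under JQ1. PLXNA4, which pairs with NRP1 to receive SEMA3A, was low throughout and higher in VHL-negative cells, averaging 4.56 CPM against 0.515 CPM under DMSO (log2 3.17, SE 0.42, adjusted p = 2.19e-05). PLXNB3 was higher in VHL-negative cells by log2 1.49 under DMSO (SE 0.19, adjusted p = 1.9e-05). PLXNA2 was higher by log2 1.41 under DMSO (SE 0.41, adjusted p = 0.0157), a call lost without replicate 2 or 3 of the VHL-positive DMSO group (adjusted p = 0.0548 and 0.0862). PLXNC1, the receptor of SEMA7A, had log2 values of -0.16 under DMSO and 0.22 under JQ1 between the lines (adjusted p = 0.558 and 0.369).

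**Figure D4:**
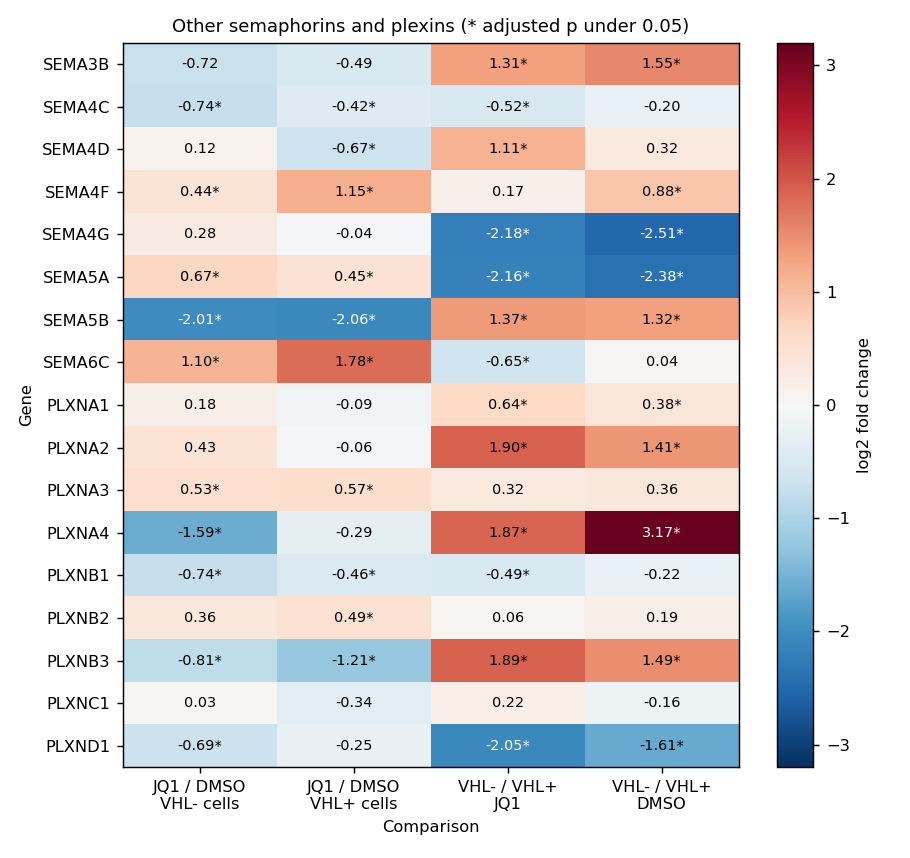
Fitted log2 fold changes of the 8 other tested semaphorins and 9 plexins, in colour and as numbers, for JQ1 over DMSO in each line and VHL-negative over VHL-positive cells under each treatment; stars mark an adjusted p under 0.05 by edgeR. SEMA4G, SEMA5A and PLXND1 are lower in VHL-negative cells under both treatments, and SEMA5B is lower and SEMA6C higher with JQ1 in both lines.

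Among the pathway lists, co-receptors held the widest differences between the lines. L1CAM, the adhesion molecule that joins NRP1 in SEMA3A reception, averaged 247 and 345 CPM in VHL-negative cells under JQ1 and DMSO, against 21.3 and 18.6 CPM in VHL-positive cells under JQ1 and DMSO. Under DMSO it was higher in VHL-negative cells by log2 4.21 (SE 0.23, adjusted p = 7.81e-10). NRCAM, its relative that partners NRP2, averaged 0.911 and 1.36 CPM in VHL-negative cells under JQ1 and DMSO, against 116 and 79.9 CPM in VHL-positive cells under JQ1 and DMSO (log2 -5.88 under DMSO, SE 0.28, adjusted p = 1.32e-10). PTK7, the relative of the fly plexin partner off-track, was lower in VHL-negative cells by log2 -1.71 under DMSO (SE 0.12, adjusted p = 9.23e-09), and the SEMA7A receptor subunit ITGA1 by log2 -1.23 (SE 0.12, adjusted p = 1.02e-06). Of 9 tested co-receptors, 1 was higher and 4 lower in VHL-negative cells under each treatment, beside 30.7% of all genes under DMSO and 40.9% under JQ1. JQ1 raised 2 and lowered 1 in VHL-negative cells (33.3% of the 9, 32.1% of all genes) and raised 2 in VHL-positive cells (22.2%, 31.8% of all genes). The VHL-negative count was 2 without any single JQ1 library of either line. It was also 2 without replicate 1 or 2 of the VHL-negative DMSO group or replicate 3 of the VHL-positive DMSO group. Without replicate 2 of the VHL-positive DMSO group it was 4. The calls of MET and ITGA1 were the ones lost (adjusted p by edgeR up to 0.173 and 0.0799 with 1 library left out). The VHL-positive count was 1 without any single VHL-positive JQ1 library and with total counts alone.

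The rival ligands for neuropilins were the VEGFs, of which VEGFA, VEGFB and VEGFC were tested, while VEGFD, PGF and the receptors FLT1, KDR and FLT4 were too low. VEGFA had 211, 237 and 226 CPM in VHL-negative JQ1 libraries, against 157, 173 and 147 CPM in VHL-negative DMSO libraries. VHL-positive libraries gave 34.3, 29.4 and 31.2 CPM under JQ1, against 47.0, 92.7 and 51.3 CPM under DMSO. Replicate 2 of the VHL-positive DMSO group was thus high for VEGFA as it was for SEMA3C, SEMA7A and NRP2, and its part in these values was not tested beyond leaving it out. VEGFA was higher in VHL-negative cells under DMSO (log2 1.32, SE 0.20, adjusted p = 8.39e-05) and under JQ1 (log2 2.83, SE 0.21, adjusted p = 3.02e-08). Without that library the value under DMSO was log2 1.70, and the JQ1 value in VHL-positive cells was -0.62 in place of -1.008. VEGFC, a ligand of NRP2, fell with JQ1 by log2 -1.09 in VHL-negative cells (SE 0.24, adjusted p = 0.0027) and -1.97 in VHL-positive cells (SE 0.26, adjusted p = 4.6e-05).

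Of 23 tested effectors inside the cell, JQ1 raised 7 and lowered 4 in VHL-negative cells, where 32.1% of all genes passed, and raised 6 and lowered 4 in VHL-positive cells, where 31.8% passed. The 10 in VHL-positive cells became 5 without replicate 1 or without replicate 3 of the JQ1 group, and 6 without replicate 2 of the JQ1 or of the DMSO group. FYN, a kinase that relays SEMA3A signals from plexins, rose by log2 3.19 (SE 0.19, adjusted p = 2.01e-08) in VHL-negative and by 1.94 (SE 0.17, adjusted p = 1.3e-06) in VHL-positive cells. In VHL-positive cells JQ1 raised RRAS, a small GTPase that plexins inactivate, by log2 0.96 (SE 0.18, adjusted p = 0.0007) and FARP2, an exchange factor in plexin-A signalling, by 0.69 (SE 0.13, adjusted p = 0.00112). LIMK1, the kinase that acts on cofilin downstream of semaphorins, fell in VHL-negative cells by log2 -1.0005 (SE 0.16, adjusted p = 0.000179), and so did CDK5, which phosphorylates collapsin response proteins, by -1.38 (SE 0.20, adjusted p = 9.92e-05). DPYSL5, one of those response proteins, was lower in VHL-negative than in VHL-positive cells under DMSO by log2 -2.49 (SE 0.14, adjusted p = 1.32e-09), and it fell with JQ1 in VHL-positive cells by -0.81 (SE 0.14, adjusted p = 0.00031). Across all 52 tested pathway genes outside the 9, 25 passed for JQ1 in VHL-negative cells (13 higher, 12 lower; 32.1% of all genes) and 25 in VHL-positive cells (13 higher, 12 lower; 31.8% of all genes), the second count being 16 and 15 without replicate 1 or 3 of the VHL-positive JQ1 group. Between the lines 25 passed under DMSO (12 higher and 13 lower in VHL-negative cells) beside 30.7% of all genes, and 29 under JQ1 (12 higher, 17 lower) beside 40.9%. Medians lay between -0.12 and 0.094 on the log2 scale, beside -0.027 to 0.034 over all tested genes. Since many semaphorin genes are known from neurons, 5 neuronal markers were summed, giving 27.1 to 44.0 CPM in VHL-negative JQ1 against 7.98 to 10.9 in VHL-negative DMSO libraries, and 33.3 to 39.5 in VHL-positive JQ1 against 12.2 to 15.4 in VHL-positive DMSO libraries. TUBB3 and MAP2 carried most of this, RBFOX3 reached at most 1.013 CPM, none of the 5 was at 0, and their part in the values above was not tested.

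Genes with a course over the 12 libraries close to each of the 9 were sought among 7105 expressed genes, by the root mean square difference of centred log2 CPM. SEMA6B had the most distant match, its nearest genes APOL6 and ABCC2 being 0.457 and 0.458 away, and SEMA7A had THSD4 at 0.270 and HK2, a hypoxia-inducible hexokinase, at 0.274. SEMA3F was nearest to FGFR4 at 0.213 and PELI1 at 0.228, SEMA3A to PPIL1 at 0.136 and HDAC9 at 0.205, SEMA3C to BUB1B at 0.189 and CENPL at 0.206, and SEMA6A to SOS1 at 0.114 and GLI3 at 0.124. NRP1 was nearest to PTPRE and BABAM2, both at 0.130, NRP2 to DCLRE1B at 0.108 and GINS2 at 0.133, and SEMA4B, the flattest, to PDLIM7 at 0.0611 and TRIM8 at 0.0776. Within the semaphorin pathway lists, the nearest to SEMA7A was VEGFA at 0.488 and the nearest to NRP2 was MICAL2 at 0.233. These are distances within the same libraries and carry no test.

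The authors' deposited tables also compare JQ1 with DMSO, and there the log2 fold changes of the 9 genes lay within 0.0358 of the values fitted here, and the sign was the same in 17 of 18 pairs, the exception being SEMA6A in VHL-negative cells, which lay near 0.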

How the data were processed

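The deposited counts are raw reads per Ensembl gene, per the file headers, in 12 libraries of RNA depleted of ribosomal RNA. Per the submitters' processing notes, the build was GRCh38 and the tools included DESeq2 1.30.1, featureCounts, Subread 2.0.3 and STAR 2.7.8, in no stated order. The authors also deposited, for each line, a table comparing JQ1 with DMSO. Per the file headers it holds log2 fold changes and their errors, a score (the test statistic), raw and adjusted p-values, and an average level of some other kind, which was not used. Samples were grouped by the labels for VHL and treatment. The analysis ran in R (4.3.3) and edgeR (4.0.16), with TMM scaling, the package's group-wise filter for low counts (20714 genes with 99.9% of counts), 1 mean per group over all 12 libraries, quasi-likelihood tests, and Benjamini-Hochberg adjustment over all tested genes at 0.05. Log2 CPM used a prior count of 2. Levels per exon length used merged exons of GENCODE 29. The fit was tested on simulated counts. Precision is limited by 3 libraries per group and by totals from 15452949 counts upward. The 9 genes, the pathway lists and the rule for named genes were chosen with earlier results of these data known. By that rule the members, plexins and VEGFA could be named, with up to 4 genes of smallest p per other list and comparison, and the 2 nearest profiles; the text describes the main ones. Alternatives were other scaling and filters, DESeq2 1.42.0, limma-voom (limma 3.58.1), protein-coding genes, only the compared groups, a replicate block and leaving out each library. The strand setting is not stated in those sources, and cells with a short hairpin were not analysed here.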

Additional observations from a re-analysis of the deposited data

Results flagged for a closer look

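For VEGFA the JQ1 effect differed between the lines in edgeR's test of the difference itself, VHL-negative minus VHL-positive, by log2 1.505 (SE 0.28, adjusted p = 0.0163). The JQ1 value was log2 0.50 in VHL-negative cells (adjusted p = 0.0614) and -1.008 in VHL-positive cells (adjusted p = 0.00119). Without replicate 2 of the VHL-positive DMSO group the VHL-negative value was 0.49 and passed (adjusted p = 0.00406), and the difference was 1.11, and the adjusted p ran from 0.00557 to 0.0645 over the libraries left out in turn, missing 0.05 without replicate 3 of the VHL-negative JQ1 group or any replicate of the VHL-positive JQ1 group.

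For FYN the same test gave a difference of log2 1.25 (SE 0.25, adjusted p = 0.0254). FYN averaged 18.0 CPM under JQ1 against 1.96 under DMSO in VHL-negative cells, and 21.0 against 5.45 in VHL-positive cells. Its adjusted p ran from 0.0101 to 0.0932 over the libraries left out in turn, and it missed 0.05 without VHL-negative JQ1 replicate 3, VHL-negative DMSO replicate 1 or 3, any VHL-positive JQ1 replicate, or VHL-positive DMSO replicate 3.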

How the results depend on the processing

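Of 936 values of the 9 genes recomputed under alternatives, 911 stayed within 1 standard error, and no value whose main call had passed reversed. Of 1908 values of named pathway genes, 1821 kept direction and call, 65 lost the call, 13 gained it and 9 reversed, none of which had passed. The reversed values for JQ1 were PLXNC1 in VHL-negative cells (-0.032 with no filter on low counts, and -0.087 to 0.12 with 1 library left out), and in VHL-positive cells PLXNA2 (0.17 with limma-voom, and -0.39 to 0.84 with 1 library left out), PLXNA1 (-0.22 to 0.047 with 1 library left out) and PLXNA4 (-0.72 to 0.038 with 1 library left out). The cause was not tested. Counts for the difference of JQ1 effects were the least stable: 250 genes in all and 2 pathway genes, against 1336 and 6 with no filter and 1188 and 5 with DESeq2. Leaving out 1 library gave 43 to 3510 genes and 0 to 12 pathway genes, the highest without VHL-negative JQ1 replicate 1. For pathway genes and JQ1, leaving out 1 library gave 15 to 28 in VHL-positive and 19 to 29 in VHL-negative cells, and between the lines 23 to 28 under DMSO and 25 to 31 under JQ1. Total counts alone, in place of TMM, moved the median of all genes by -0.114 for JQ1 in VHL-positive cells and by 0.156 between the lines under JQ1; rises made up 34.1% of calls in place of 48.1% in the first, 62.1% in place of 48.1% in the second, and 56.3% in place of 41.2% for the difference (51.9% with protein-coding genes only). SEMA4B with JQ1 in VHL-positive cells was 0.072 with TMM and -0.034 with total counts, and SEMA3F there was 0.21 and 0.091. Between the lines under JQ1, total counts gave -0.095 in place of -0.25 for NRP1 and -0.16 in place of -0.32 for SEMA4B. Values above 0 in that comparison grew, as for NRP2 (0.84 in place of 0.69). The labels repeat replicate numbers across groups, and deviations of same-numbered libraries correlated at -0.26 to 0.33. With 3 libraries per group and no differently numbered pairs beside them, these values cannot decide whether the numbers pair the libraries. The main fit did not pair them. With a replicate block 26 and 23 pathway genes passed for JQ1 in VHL-negative and VHL-positive cells. Between the lines 26 and 28 passed under DMSO and JQ1, and 2 passed for the difference. For JQ1 in VHL-positive cells 4 of the 9 genes passed with the block in place of 6. Depth limits low genes such as PLXNA2 and PLXNA4, and with 3 libraries per group the 95% intervals of the difference of JQ1 effects reached 1.17 on the log2 scale (SEMA3C).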
